A study of Mus musculus with 2 samples.

Results

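Lipid droplet coat proteins and the lipolysis step that they guard were followed in mouse liver through 10 genes, chosen by name from the droplet coat families and the lipase with its regulators, with earlier results of these data known. They are the CIDE family (Cidea, Cideb, Cidec), 4 perilipins (Plin2, Plin3, Plin4, Plin5), the triglyceride lipase ATGL (Pnpla2), its activator (Abhd5) and its inhibitor (G0s2). All 10 were represented, among 20284 genes named on the arrays, by 14 of 26762 named probes. Abhd5 had 3 probes, Cideb and Cidec had 2 each, and the remaining 7 genes had 1.

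A lipid droplet is a core of triglyceride and sterol ester under a single layer of phospholipid, and the proteins on that layer help to set how fast the core is filled and emptied. CIDE proteins gather where droplets touch and promote their growth, perilipins shield the core from lipases, and ATGL takes the first fatty acid from a triglyceride once Abhd5 activates it and as long as G0s2 does not block it. A fasting liver receives fatty acids from adipose tissue and stores part of them in droplets before they are oxidised or exported.

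The study set livers of CREBH knockout (KO) mice, CREBH null on a C57B6J background, against those of wild-type (WT) C57B6J mice. CREBH, encoded by Creb3l3, is a transcription factor of the endoplasmic reticulum membrane that fasting activates in hepatocytes. There were 4 pools of liver RNA, namely KO and WT liver fasted for 24 h and KO and WT liver of mice fed ad lib. Pools of equal feeding state shared 1 two-colour array, the KO pool in Cy5 and the WT pool in Cy3. The number, sex and age of the mice in a pool, and the deleted part of Creb3l3, are not given in the sources used here. With 1 pool per group, no dye swap and no second array, no test was possible, and the dye and the genotype cannot be told apart. Each feeding state had its own array, so a fasting difference and a difference between the arrays cannot be told apart either. A difference of at least 2-fold (1 on the log2 scale) served as a rule of size. In such pools of whole liver, fewer cells of a type and less RNA per cell cannot be told apart.

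Depth was set by signal over background. Of 59305 gene spots, 45.8% (KO) and 45.9% (WT) were well above background on the fasted array and 42.9% (KO) and 39.9% (WT) on the fed array. A gene counted as measured in a comparison where the scanner software marked its probe as well above background in each pool compared. Every member probe was printed once per array, so its own spread between spots is unknown. Probes printed 10 times had a median SD between their spots of 0.08 (KO over WT, fasted), 0.09 (KO over WT, fed), 0.08 (fasted over fed, KO) and 0.08 (fasted over fed, WT) on the log2 scale. Creb3l3 had log2 signals of 12.95 in fasted KO, 15.03 in fasted WT, 13.12 in fed KO and 14.00 in fed WT liver, so that its KO over WT ratio was -2.07 after fasting and -0.88 in the fed state. The files do not say whether its probe lies within the deleted part. All 8 hepatocyte markers listed (albumin, transthyretin and others) were well above background in every pool, whereas of 10 adipocyte markers Adipoq, Lep, Retn and Plin1 were so in none, Fabp4 and Pparg in all, and Cfd, Cidea, Lipe and Slc2a4 in some.

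The promoters of the 3 members that varied most over the 4 pools, Cidec, G0s2 and Plin4, are shown because the first pair also differed most between KO and WT liver. They come from RefSeq on build GRCm38.p6, minus strand, and run from 250 bases before to 50 bases after an annotated start. Cidec has 2 such starts, at chr6:113435711-113436010 and at chr6:113434715-113435014. G0s2 has chr1:193273139-193273438 and Plin4 chr17:56109733-56110032. Capitals mark each match to TGACG, to CCACG (letters found in sites of CREB3 family factors) or to AGGTCA (the half-site of nuclear receptors) on either strand.
Cidec upstream start: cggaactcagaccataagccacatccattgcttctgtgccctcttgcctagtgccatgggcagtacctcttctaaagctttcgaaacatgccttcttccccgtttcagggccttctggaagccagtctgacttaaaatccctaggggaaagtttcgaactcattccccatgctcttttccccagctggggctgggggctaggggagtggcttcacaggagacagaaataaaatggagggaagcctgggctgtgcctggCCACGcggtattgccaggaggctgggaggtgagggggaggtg
Cidec downstream start: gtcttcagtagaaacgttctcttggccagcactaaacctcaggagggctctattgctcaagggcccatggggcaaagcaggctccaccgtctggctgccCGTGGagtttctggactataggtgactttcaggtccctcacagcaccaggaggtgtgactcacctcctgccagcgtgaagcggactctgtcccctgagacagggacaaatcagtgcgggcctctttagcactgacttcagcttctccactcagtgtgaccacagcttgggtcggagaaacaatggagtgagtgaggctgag
G0s2: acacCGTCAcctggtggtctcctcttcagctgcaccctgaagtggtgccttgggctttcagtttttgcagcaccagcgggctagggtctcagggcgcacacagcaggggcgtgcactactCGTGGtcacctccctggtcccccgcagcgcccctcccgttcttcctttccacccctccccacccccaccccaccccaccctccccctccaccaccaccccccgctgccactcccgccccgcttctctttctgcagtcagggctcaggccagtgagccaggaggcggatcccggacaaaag
Plin4: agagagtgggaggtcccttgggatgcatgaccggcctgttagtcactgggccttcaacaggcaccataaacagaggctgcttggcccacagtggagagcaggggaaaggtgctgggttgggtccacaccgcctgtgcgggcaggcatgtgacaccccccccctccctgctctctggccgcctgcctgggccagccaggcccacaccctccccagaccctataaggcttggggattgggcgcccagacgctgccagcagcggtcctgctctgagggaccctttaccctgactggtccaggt

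The upstream Cidec promoter held CCACG from base 9 after the start, and the downstream one held it on the reverse strand, from base -151. The G0s2 promoter held TGACG and CCACG, both on the reverse strand, from bases -246 and -130. No match lay in this window of Plin4. The search covered 11 promoters of 9 of the 10 members and included none of Cidea. CCACG was in 7 of the 11, against 32.77% of 32851 promoters of this length, TGACG in 2 against 20.81%, and AGGTCA in 4 against 16.26%. The direct repeat AGGTCANAGGTCA, which PPAR factors bind, was in none of the 11 and in 0.04% of all promoters. Matches of so few letters are a description and not binding sites.

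Cidec (FSP27), which drives droplet fusion and is best known from fat cells and fatty liver, showed the largest KO over WT difference after fasting of the 9 measured members. The scanner read raw median signals, background included, of 193.0 in fasted KO, 535.0 in fasted WT, 93.5 in fed KO and 57.0 in fed WT liver at probe A_55_P1969131. The medians over all gene spots were 86.0, 29.0, 83.0 and 27.0 in the same order. After normalization the log2 signals were 6.80 in fasted KO, 9.37 in fasted WT, 6.21 in fed KO and 6.89 in fed WT liver. Fasted WT liver thus stood far above the other pools, and fed KO liver was close to the lowest signal that counted as well above background in its channel, 6.08. Cidec was 5.92-fold lower in fasted KO than in fasted WT liver (log2 -2.56), which placed it 7 from the bottom of 12262 genes. The scanner software's own ratio was -3.38 ± 0.38, its error being that of a model for 1 spot and not of replicates. Over 10 settings of the processing this ratio ran between -3.38 and -2.02.

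In the fed state the Cidec ratio was -0.67, or -1.97 ± 0.34 by the scanner software and -1.25 with a smaller background offset, so its size there depended on how dim signals were handled. The fasted signal exceeded the fed one by 0.59 in KO liver and by 2.48, or 5.59-fold, in WT liver on the log2 scale. The value in KO liver became 1.80 with the scanner's processed signals and 1.18 with the smaller offset, both past 2-fold. With the scanner's processed signals the value in WT liver rose as well, to 3.21. The genotype ratio was lower in the fasted than in the fed state by 1.89 on the log2 scale (-1.41 ± 0.51 by the scanner software), 12 from the bottom of 11290 genes. A second Cidec probe, A_55_P1969128, was well above background in fasted WT liver alone, at 7.68, against 5.93 in fasted KO, 6.18 in fed KO and 6.18 in fed WT liver. Where only 1 side was above background the ratio is a bound, here at least 3.11-fold lower in fasted KO than in fasted WT liver and at least 2.83-fold higher in fasted than in fed WT liver. The dim side of a bound is the lowest signal that passed as well above background in its channel, or the signal of the dim probe itself where that was higher. Both probes therefore put the fasted WT pool above the others.

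Cidea, a relative that marks brown fat and appears in steatotic liver, was near the limit of detection. Its log2 signals were 6.12 in fasted KO, 6.41 in fasted WT, 6.06 in fed KO and 6.14 in fed WT liver. Only fasted WT liver was well above background. This gives at least 1.22-fold lower in fasted KO than in fasted WT liver and at least 1.20-fold higher in fasted than in fed WT liver. The scanner software's own KO over WT ratios of Cidea were -1.91 ± 0.46 after fasting and -1.11 ± 1.56 in the fed state. The size of the Cidea difference thus depended on how dim signals were handled. Cideb, the CIDE protein of hepatocytes, with a part in lipoprotein lipidation, was bright and varied little. It had 14.34 in fasted KO, 14.67 in fasted WT, 14.50 in fed KO and 14.63 in fed WT liver, a range of 0.33 over the 4 pools. The fasting difference in WT liver was 0.05 at this probe and 0.33 at a second one. The KO over WT ratio of Cideb was -0.33 after fasting, 637 from the bottom of 12262 genes, and -0.12 in the fed state. The second Cideb probe gave -0.31 and -0.01. Both signs turned when each array was centred on the median of its measured genes (0.18 and 0.44) or of all its spots (0.67 and 1.15), the second of which moved the median of all genes to 0.57 on the fasted and 0.78 on the fed array. After fasting, Cideb thus had a small genotype difference and Cidec the largest among the measured members, while Cidea had only a bound.

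**Figure D1:**
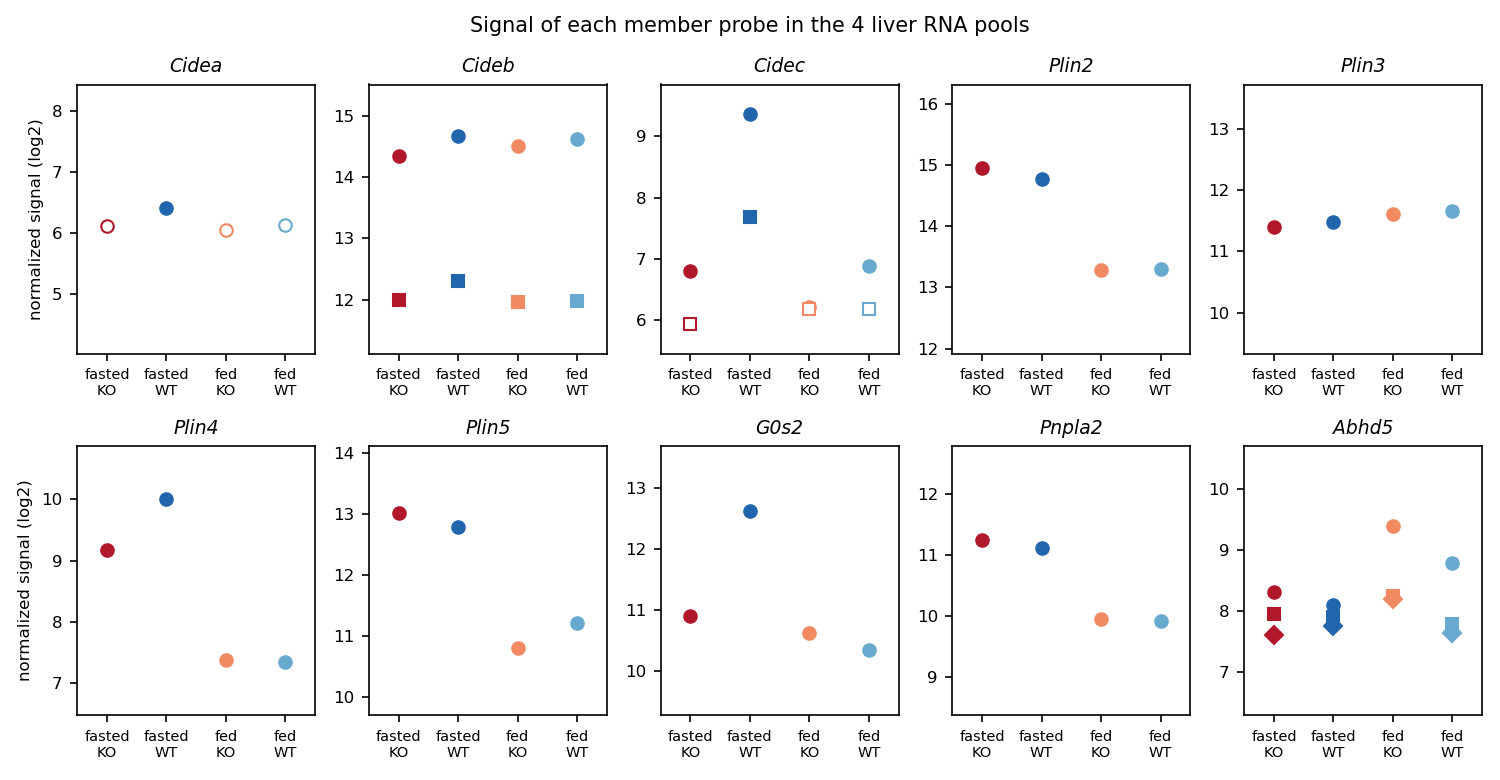
Normalized log2 signal (vertical axes, each spanning the same number of log2 units) of every member probe in the 4 liver RNA pools, in the order fasted KO, fasted WT, fed KO and fed WT. Each point is 1 pool, open points were not well above background, and further probes of a gene are squares and diamonds. Cidec and G0s2 stand out in fasted WT liver (9.37 and 12.62), whereas Plin2, Plin5 and Pnpla2 are high in both fasted pools.

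Plin2, the perilipin found on nearly every hepatocyte droplet, was high after fasting in both genotypes. Its log2 signals were 14.95 in fasted KO, 14.77 in fasted WT, 13.29 in fed KO and 13.30 in fed WT liver. Fasted exceeded fed liver 3.15-fold in KO mice (log2 1.65) and 2.77-fold in WT mice (log2 1.47). KO and WT liver differed by 0.17 after fasting and by -0.01 in the fed state. The first was about the size of the scanner software's error for this spot (0.18 ± 0.20), and the second did not keep its sign under 5 of the 10 settings.

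Plin5, which ties droplets to mitochondria in tissues that burn fat, also had its highest signals after fasting. Its log2 signals were 13.02 in fasted KO, 12.78 in fasted WT, 10.81 in fed KO and 11.22 in fed WT liver. The KO pool was thus above the WT pool after fasting and below it in the fed state. Fasted exceeded fed liver 4.64-fold in KO mice (log2 2.21) and 2.95-fold in WT mice (log2 1.56), which were ranks 25 of 11785 and 75 of 11441 genes from the top. The KO over WT ratio was 0.24 after fasting (0.27 ± 0.21 by the scanner software) and -0.41 in the fed state (-0.51 ± 0.21), although the fed sign turned to 0.61 with centring on all spots, where the median of all genes was itself 0.78. The difference between the 2 ratios, 0.65, lay below the 2-fold rule and ran from 0.52 to 0.78 over 11 settings.

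Plin4, a perilipin with a long repeat region, known from adipocytes and muscle, had the largest fasting difference of the members in WT liver. Its log2 signals were 9.17 in fasted KO, 10.01 in fasted WT, 7.38 in fed KO and 7.34 in fed WT liver. The fed pools differed by less than the spread between spots, and fasted KO liver lay between them and fasted WT liver. Fasted exceeded fed liver 3.47-fold in KO mice (log2 1.79) and 6.38-fold in WT mice (log2 2.67), where Plin4 was 14 from the top of 11441 genes. It was 1.79-fold lower in fasted KO than in fasted WT liver (log2 -0.84, scanner software -0.96 ± 0.22) and differed by 0.04 in the fed state. The fasted ratio did not reach 2-fold in any of 10 settings and was -0.15 with centring on all spots, 0.72 below the median of all genes there. Some of these settings cannot change the value of a gene with a single probe. The genotype ratio was lower after fasting than in the fed state by 0.88 on the log2 scale (-0.98 ± 0.31 by the scanner software), 91 from the bottom of 11290 genes, and by 0.48 with centring on measured genes and 0.69 with centring on all spots.

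Plin3, the perilipin that moves between cytosol and young droplets, hardly varied. Its log2 signals were 11.40 in fasted KO, 11.48 in fasted WT, 11.62 in fed KO and 11.66 in fed WT liver. The 4 pools lay within 0.26. The gene next to Plin4 on chromosome 17 is Plin5, and Plin3 is on the same chromosome, yet the KO over WT ratios of Plin4 and Plin5 after fasting had opposite signs (-0.84 and 0.24) under each of 10 settings of the processing. Some of these settings leave both ratios unchanged, as each gene had a single probe.

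**Figure D2:**
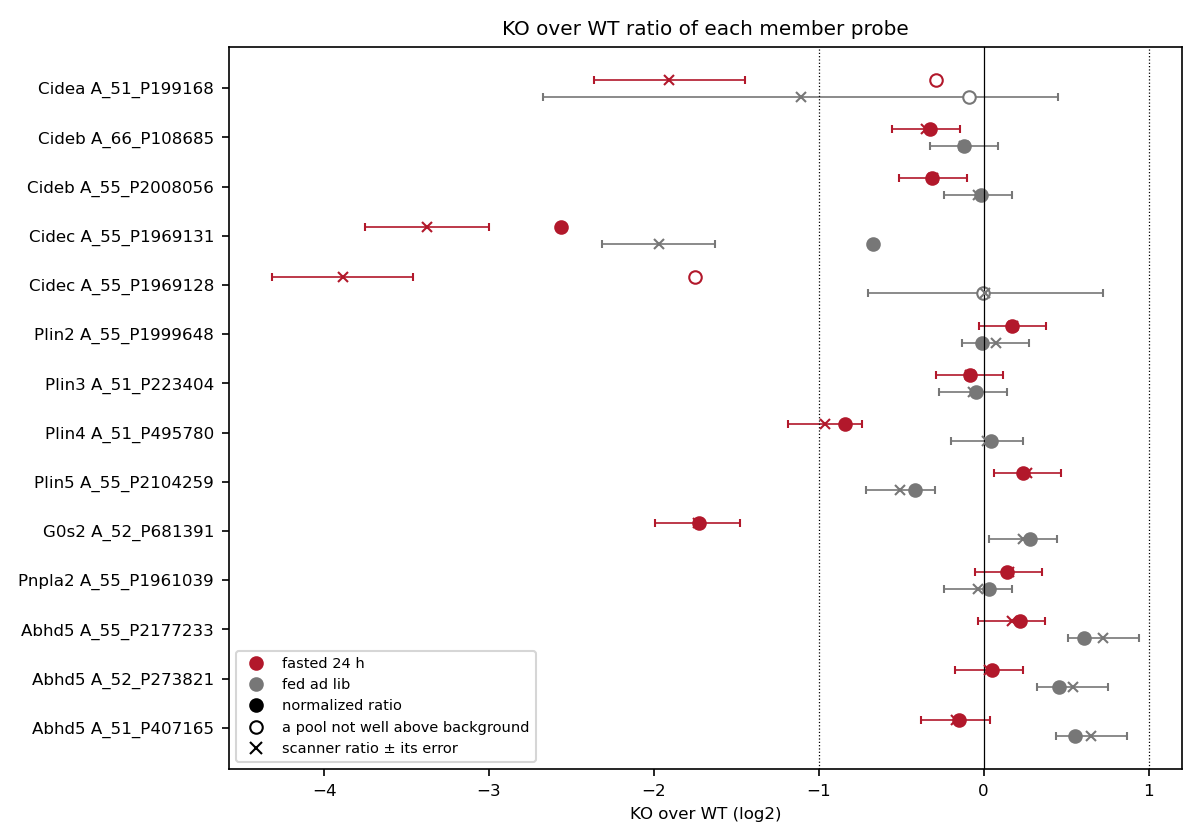
KO over WT ratio (log2, horizontal axis) of each member probe, with the fasted array in red above the fed array in grey. Circles are the normalized ratios used in the text, open where a pool was not well above background, crosses are the scanner software's ratios with its own error for 1 spot, and dotted lines mark 2-fold. Past 2-fold lie Cidec (-2.56) and G0s2 (-1.73) after fasting, while the normalized fed ratios of all measured members lie within it.

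G0s2, a small protein that binds ATGL and blocks it, was the other member past 2-fold between genotypes. Its log2 signals were 10.89 in fasted KO, 12.62 in fasted WT, 10.62 in fed KO and 10.34 in fed WT liver. Fasted WT liver was the high pool, as for Cidec, and the other 3 pools lay between 10.34 and 10.89. G0s2 was 3.31-fold lower in fasted KO than in fasted WT liver (log2 -1.73, scanner software -1.73 ± 0.26), 15 from the bottom of 12262 genes. In the fed state the ratio was 0.28 (0.24 ± 0.21), or 0.56 with centring on measured genes and 1.27 with centring on all spots. With centring on all spots the fasted ratio was -0.91, just short of 2-fold but 1.48 below the median of all genes. Fasted exceeded fed liver 1.20-fold in KO mice (log2 0.27) and 4.84-fold in WT mice (log2 2.28). The genotype ratio was lower after fasting than in the fed state by 2.01 on the log2 scale (-1.97 ± 0.33 by the scanner software). This difference was 9 from the bottom of 11290 genes. It was past 2-fold in 11 of 11 settings (-2.18 to -1.97), some of which cannot change the value of a gene with a single probe. The scanner's processed signals and the authors' table hold nearly the same ratios but count as separate settings.

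Pnpla2 (ATGL), the lipase that G0s2 blocks, had log2 signals of 11.25 in fasted KO, 11.11 in fasted WT, 9.94 in fed KO and 9.91 in fed WT liver. Both fasted pools were high. Fasted exceeded fed liver 2.47-fold in KO mice (log2 1.30) and 2.29-fold in WT mice (log2 1.19). KO and WT liver differed by 0.14 after fasting and 0.03 in the fed state, both under the scanner software's error of 0.20.

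Abhd5 (CGI-58), the ATGL activator, had log2 signals of 8.32 in fasted KO, 8.10 in fasted WT, 9.40 in fed KO and 8.79 in fed WT liver at its brightest probe. Fed KO liver was the high pool. Abhd5 was 1.52-fold higher in fed KO than in fed WT liver (log2 0.61, scanner software 0.72 ± 0.22), 132 from the top of 11377 genes, and its other probes gave 0.45 and 0.56. After fasting the 3 probes gave 0.22, 0.05 and -0.15. Fasted was below fed liver by 1.08 in KO mice and by 0.69 in WT mice at the brightest probe. The other probes gave -0.30 and -0.59 in KO mice, and 0.11 and 0.12 in WT mice, so the probes disagreed on the direction in WT liver. The 2-fold difference in KO liver was lost with the mean of the probes (-0.66) and without normalization between arrays (-0.56).

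The ratios of the lipase and its inhibitor were also set against each other. The fasting difference of Pnpla2 exceeded that of G0s2 by 1.04 on the log2 scale in KO liver and was below it by 1.08 in WT liver (-1.08). The KO over WT ratio of Pnpla2 exceeded that of G0s2 by 1.87 after fasting and was 0.25 below it in the fed state (-0.25). These are differences between ratios of RNA, each within 1 probe, and say nothing of protein or of lipase activity.

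Counted over the 9 members measured in every comparison (all but Cidea), 0 were 2-fold higher and 2 lower in fasted KO than in fasted WT liver, Cidec and G0s2, with a median ratio of -0.09. With centring on all spots 2 were higher, Plin2 (1.20) and Plin5 (1.13), and 1 lower, Cidec. Under that centring 940 of all 12262 genes measured there were 2-fold higher and 16 lower, with a median of 0.57. Without it, as for the count reported first, 0.359% of the 12262 genes were 2-fold higher and 0.432% lower, and their median was 0.01. In the fed state 0 members were 2-fold higher and 0 lower (median -0.01), where the shares over 11377 genes were 0.158% and 0.396%. Between fasted and fed KO liver 4 members were 2-fold higher (Plin2, Plin4, Plin5, Pnpla2) and 1 lower (Abhd5), with a median of 0.59, against 2.59% and 2.1% of 11785 genes. Between fasted and fed WT liver 6 were 2-fold higher, those 4 with Cidec and G0s2, and 0 lower, with a median of 1.47, against 2.36% and 1.92% of 11441 genes. For the fasted minus the fed KO over WT ratio 0 members were 2-fold higher and 2 lower (Cidec and G0s2, median -0.21), against 0.771% and 0.602% of 11290 genes. These comparisons share pools, so they are not independent of each other.

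**Figure D3:**
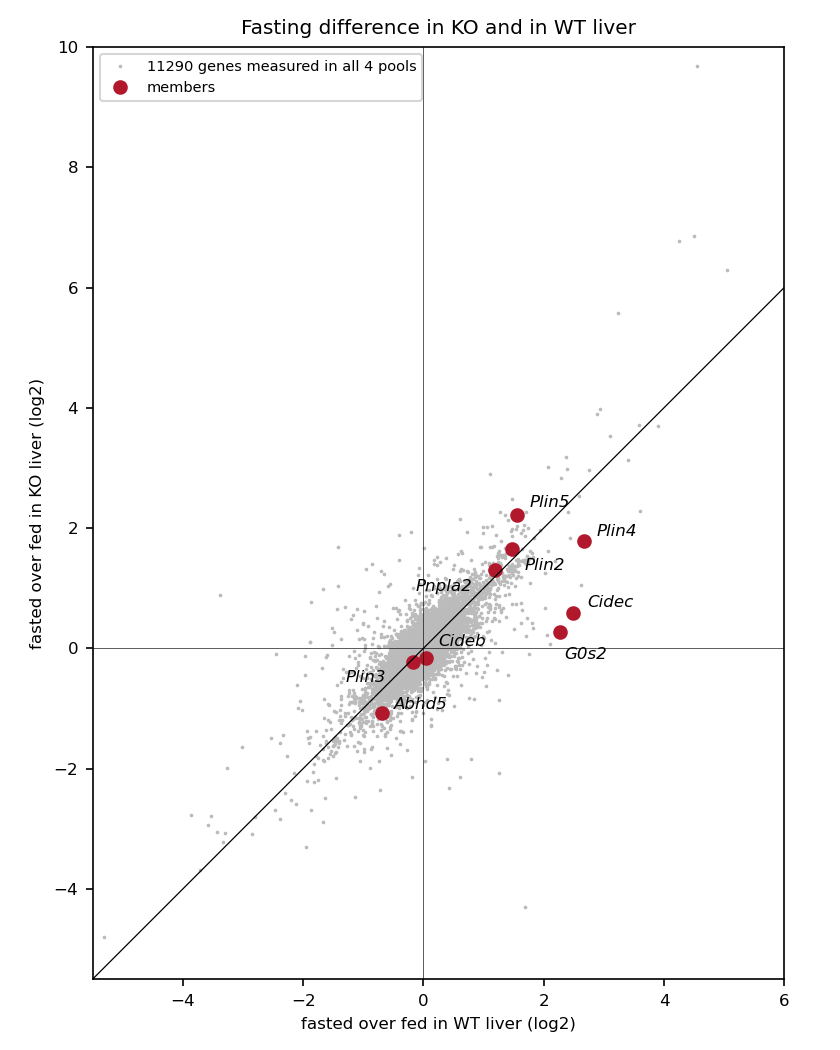
Fasted over fed difference (log2) in KO liver (vertical axis) against WT liver (horizontal axis) for the 11290 genes measured in all 4 pools, in grey, and the 9 measured members, in red. The diagonal marks equal differences. Cidec and G0s2 lie far below it (0.59 and 0.27 in KO liver, 2.48 and 2.28 in WT liver), Plin4 lies below it, Plin5 above it, and Plin2, Pnpla2, Plin3 and Cideb near it.

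Patterns over the 4 pools were compared by the Euclidean distance between log2 signals centred on each gene's own mean, over the 11290 genes measured in all pools. Nearest to Cidec were Fgf21, the fasting hormone gene, at 0.43, G0s2 at 0.94 and the transcribed pseudogene Gm13315 at 0.94. Fgf21, like Cidec, was dim in KO liver (6.65 fasted, 6.43 fed), and the distances were not recomputed with other handling of dim signals. Nearest to G0s2 were Lamb3, a laminin chain gene, at 0.33, Gm13315 at 0.37 and Pck1, the gluconeogenic enzyme gene, at 0.43. Nearest to Plin4 were Cyp8b1, a sterol hydroxylase of bile acid synthesis, at 0.29, Cpt1a, which admits fatty acids to mitochondria, at 0.42 and Serpina3n at 0.61. Lamb3 is also the gene next to G0s2 in the annotation. It was at -1.46 (KO over WT, fasted) and 0.03 (fed), and fasted over fed at 0.33 in KO and 1.82 in WT liver, whereas Hsd11b1, the neighbour on the other side, was at -0.19, -0.47, 0.34 and 0.06 in the same order. The neighbours of Cidec, Rpusd3 and Jagn1, had ratios between -0.36 and 0.25 in all these comparisons. Among the 36 pairs of measured members the closest were Cideb with Plin3 (0.23), Plin2 with Pnpla2 (0.32) and Plin2 with Plin5 (0.43).

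Other genes of droplet biology and lipolysis, a list of 41 of which 40 were on the array, gave the surroundings of the members. Between KO and WT liver, 0 of 34 measured were 2-fold apart after fasting (median -0.01), against 0.791% of all genes (median 0.01). In the fed state 0 of 33 were (median 0.05), against 0.554% of all genes (median 0.01). Shares this low leave little room for a gene past 2-fold in a list this short. Furthest from 0 after fasting were Acsl3, an acyl-CoA synthetase of growing droplets (0.77), the lysosomal lipase gene Lipa (-0.72) and the carboxylesterase gene Ces1g (0.64). In the fed state they were Hsd17b11, a droplet dehydrogenase (-0.81), Fitm1, of droplet budding (-0.71), and Ces1g (-0.66). Among these, centring on all spots turned the signs of Lipa (0.02), Hsd17b11 (0.26) and Ces1g in the fed state (0.27), all of them at or below the median of all genes under that setting.

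Fasting differences were wider. In KO liver 5 of 32 were 2-fold higher and 0 lower (median 0.13), against 2.59% and 2.1% of all genes (median 0.01). The 5 were Hsd17b11 (log2 2.48), Hsd17b13, a hepatic droplet protein (2.83-fold), Ces1g (1.22), Fitm1 (1.12) and the monoacylglycerol lipase gene Abhd6 (1.01). In WT liver 2 of 32 were higher, Hsd17b11 (1.47) and Hsd17b13 (1.23), and 0 lower, against 2.36% and 1.92% of all genes (median 0.01). The list median there was 0.26, and Aadac, an arylacetamide deacetylase, was the lowest of the 3 listed genes furthest from 0 (-0.94). The genotype ratio was higher after fasting than in the fed state by at least 2-fold for Ces1g (1.30) and Hsd17b11 (1.01), with Acsl3 next (0.93). It was lower by that much for 0 of 32 genes, with a list median of -0.08. Over all genes 0.771% were higher by at least 2-fold and 0.602% lower, with a median of -0.01. With the scanner's processed signals and in the authors' deposited table Acsl3 passed 2-fold and Hsd17b11 did not. The 2 members past 2-fold in that comparison were on the opposite side. Some genes had fasting bounds only, Pnpla3 being lower in fasted liver by at least 0.90 in KO and 0.79 in WT mice, Mogat1 higher by at least 1.09 and 0.64, and Lipe higher by at least 0.31 and 0.41 on the log2 scale. Plin1, the perilipin of fat cells, and 4 other listed genes were measured in no comparison.

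**Figure D4:**
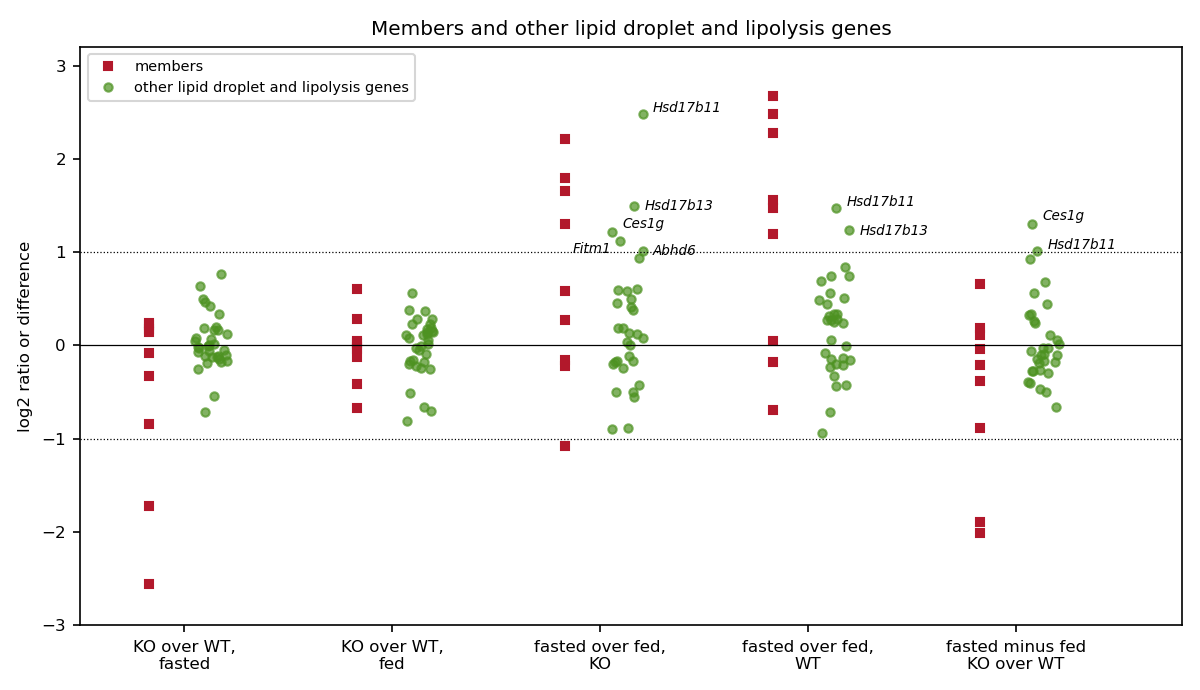
Log2 ratios, or the difference of ratios in the last column, of the 9 measured members (red squares) and of the other lipid droplet and lipolysis genes (green circles, spread sideways for legibility). Dotted lines mark 2-fold, and other genes past it are named. Cidec (-2.56) and G0s2 (-1.73) lie below all the other genes between fasted KO and fasted WT liver, where the listed genes run from -0.72 to 0.77.

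Markers of other cells were read beside Cidec, Cidea and Plin4, which fat cells express strongly. Of 10 adipocyte markers, 3 were well above background in fasted KO, 5 in fasted WT, 3 in fed KO and 4 in fed WT liver, and their summed signals in the same order were 11.27, 10.63, 10.63 and 10.74 on the log2 scale. Without Fabp4, which macrophages share, and the member Cidea, the sums were 9.42, 9.69, 9.94 and 9.92. The order of KO and WT liver thus turned after fasting, while the fed sums were nearly equal. Pparg, the brightest marker left in each pool, had the same order of KO and WT liver as these sums. Its signals were 7.61 in fasted KO, 8.24 in fasted WT, 8.88 in fed KO and 8.78 in fed WT liver. Of the 8 markers left, 2, 3, 2 and 3 were well above background in the same order, so part of each sum is signal near background. The leaving out of Fabp4 and Cidea was decided after seeing the data, and the part of fat cells in the members' ratios was not tested. Fabp4 had 10.74 in fasted KO, 9.39 in fasted WT, 9.08 in fed KO and 9.38 in fed WT liver. Summed hepatocyte markers were nearly level, at 19.44 in fasted KO, 19.32 in fasted WT, 19.30 in fed KO and 19.25 in fed WT liver. The 6 Kupffer cell and macrophage markers on the array had a median KO over WT ratio of 0.20 after fasting and -0.28 in the fed state, and their part in the members' ratios was not tested.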

How the data were processed

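Liver RNA was hybridised to 2 two-colour Agilent arrays. The authors deposited spot and local background intensity (medians over pixels), processed intensity values that were background-subtracted and dye-normalized, log10 ratios of Cy5 over Cy3 and their errors, all from Agilent Feature Extraction 10.10.1.1 per the file headers. The deposited value table holds log2 ratios, which differed by at most 0.005 from the scanner's log10 ratios turned to log2; both columns had a median of 0.0, and whether the authors centred them further is unknown. The build named for the array design is mm9, per the file headers.

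Median intensities were corrected with normexp (offset 50), normalized by loess with control spots (3671) at weight 0 and between arrays by Aquantile, in limma 3.58.1 under R 4.3.3. Ratios of dim genes are drawn towards 0 by the offset. Outlier spots (216 fed, 197 fasted) were left out, and 0 gene spots were saturated. Accessions of 25934 of 26430 probes of coding RNA were matched to RefSeq names of GRCm38.p6. The probe of highest mean intensity stood for a gene with several. The arrays shared 1 slide and 1 scan. The steps within an array were tested on simulated data with known ratios in bright spots only, where ratios came out slightly closer to 0 than simulated. Ratios of dim spots and the normalization between arrays were not tested in this way. Tables and figures were made in Python 3.11.15 with numpy 2.4.6, pandas 2.3.3 and matplotlib 3.10.9.

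Named were Creb3l3, all members, listed genes past 2-fold or among the 3 furthest from 0 in a comparison, and the 3 nearest patterns of the 3 most variable members. Genes next to a member on the chromosome and the markers were given beside them. The members and lists were chosen with earlier results of these data known. Alternatives were the scanner's processed intensity, 2 centrings, an offset of 10, no background correction, other filters on dim probes, the mean over probes, no normalization between arrays and the authors' deposited log2 ratios. The protein comparison planned was not made here.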

Additional observations from a re-analysis of the deposited data

Results flagged for a closer look

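The KO over WT ratio of G0s2 was -1.73 after fasting and 0.28 in the fed state, so the only KO pool of each feeding state lay on opposite sides of its WT pool. The difference between these ratios was -2.01 on the log2 scale. It was not tested, since each state had 1 array. The fed ratio was 0.56 with centring on measured genes and 1.27 with centring on all spots, and the fasted ratio stayed below 0 in both (-1.41 and -0.91).

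The ratio of Plin5 ran the other way, 0.24 after fasting and -0.41 in the fed state. The difference was 0.65 and was not tested. With centring on all spots the fed ratio of Plin5 was 0.61, and the ratios then no longer lay on opposite sides of 0.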

How the results depend on the processing

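Of 414 member values recomputed under other settings, 286 moved by less than the spread between spots, 128 by more, and 0 that were past 2-fold changed sign. Part of the 286 could not move. Other filters on dim probes leave a member's value unchanged, as does the mean over probes for a gene with a single measured probe. The fasted minus fed ratio is the same with and without normalization between arrays. For ratios of KO over WT, the scanner's processed signals and the authors' table are nearly the same setting counted separately. Of 92 counts, 74 stayed within 1.5 times the count reported. The exceptions follow, with the cause not tested. Members 2-fold apart between fed KO and fed WT liver, 0 as reported, numbered 1 (Cidec, lower) with the scanner's processed signals, the authors' value table, an offset of 10 and centring on measured genes, and 5 (all higher) with centring on all spots. Other listed genes 2-fold apart between fed KO and fed WT liver, 0 as reported, numbered 1 with the scanner's signals and 1 with the authors' table (Fitm1), 2 with centring on measured genes and 15 with centring on all spots. Between fasted KO and fasted WT liver, also 0 as reported, they numbered 1 with the scanner's signals, the authors' table and an offset of 10 (Acsl3), 1 with centring on measured genes and 9 with centring on all spots. Between fasted and fed liver they numbered 8 in KO and 9 in WT mice without normalization between arrays, against 5 and 2 as reported, and 4 in WT mice with the scanner's signals. The fasted minus fed ratio was 2-fold or more for 1 gene (Ces1g) with centring on all spots, against 2. Some counts hid an exchange of genes. Between fasted KO and fasted WT liver, centring on all spots gave Plin2 and Plin5 higher and Cidec lower, without G0s2. Among listed genes, the fasted minus fed ratio passed 2-fold for Acsl3 and Ces1g with the scanner's signals and the authors' table, without Hsd17b11. Between fasted and fed KO liver, Lipa and Rab8a passed 2-fold lower and Abhd6 did not pass with centring on all spots.

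Over all genes, KO over WT calls split into 44 higher and 53 lower (fasted) and 18 and 45 (fed) as reported. The split was 940 and 16 (fasted) and 3102 and 9 (fed) with centring on all spots, 107 and 39 (fasted) and 112 and 41 (fed) with centring on measured genes, and 88 and 105 (fasted) and 62 and 112 (fed) with the scanner's signals (90 and 105, and 62 and 113, in the authors' table), and 31 and 66 (fed) with an offset of 10. Fasted over fed, 305 were higher and 247 lower in KO and 270 and 220 in WT liver as reported, against 559 and 509 (KO) and 427 and 458 (WT) with the scanner's signals and 269 and 354 (KO) and 291 and 152 (WT) with centring on all spots. For the fasted minus fed ratio the split was 87 and 68 as reported, 204 and 137 with the scanner's signals, 206 and 137 with the authors' table and 66 and 124 with centring on all spots. Without normalization between arrays 1164 genes were higher and 80 lower in fasted than in fed KO liver and 1080 and 71 in WT liver, with medians over all genes of 0.45 and 0.46. Creb3l3 itself was at 0.31 on the fed array with centring on all spots, 0.46 below the median of all genes there. No paired analysis was possible because each group had 1 pool, and no replicate could be left out for the same reason. Signal over background limited Cidea, and the fed ratios of Cidec.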

Other observations

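Fabp4, a fatty acid binding protein of fat cells and macrophages, was 1.35 higher on the log2 scale in fasted KO than in fasted WT liver, and -0.31 in the fed state. Impa2, an inositol monophosphatase gene and a neighbour of Cidea, was at -1.25 (KO over WT, fasted) and -0.72 (fed), with fasting differences of -0.06 in KO and 0.47 in WT liver, while Tubb6 on the other side of Cidea was at 0.31 and 0.16 between KO and WT liver. Fabp4 and Impa2 were singled out after their values were seen.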
